A study of Bos taurus with 8 samples.

Results

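Keratin filaments and the desmosomes that anchor them were followed through 10 genes in bovine embryonic stem cells (bESCs), 3 simple epithelial keratins (KRT8, KRT18 and KRT19) and 7 desmosomal proteins (DSG2, DSC2, JUP, PKP2, PKP3, PKP4 and DSP). The genes were chosen by name from the 32634 with counts, and all 10 were found. RNA came from 4 bESC lines, A, C, D and E, derived from early or full blastocysts, with each line taken as 1 biological replicate. According to the paper, the lines were derived on MEF in normoxia and later adapted to low oxygen. All libraries used here came from cells in NBFR medium at 5% O2. Each line was sampled on MEF, a feeder layer of irradiated mouse embryonic fibroblasts, at passage 15 to 17, and again after its move to feeder-free culture on vitronectin, at passage 20 to 22. Feeders, coating and passage changed together, so their shares cannot be told apart. The sample titles name the same medium for both conditions, whereas the methods of the study add Activin A for feeder-free culture. There were 4 libraries per condition and 8 in all, and all belong to 1 sequencing batch.

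Keratins are the intermediate filaments of epithelial cells. A type I chain, such as KRT18 or KRT19, pairs with a type II chain, such as KRT8, and neither kind forms filaments alone. KRT8 and KRT18 are the first keratins of the mammalian embryo and are best known there from the trophectoderm. Desmosomes are spot junctions in which the cadherins DSG2 and DSC2 bridge neighbouring cells, plakoglobin (JUP) and the plakophilins bind their tails inside the cell, and desmoplakin (DSP) ties this plaque to the keratin filaments.

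On the bovine assembly ARS-UCD2.0, KRT8 lies on chromosome 5 from 27040267 to 27047717 beside KRT18 at 26998520 to 27002170, and KRT19 and JUP lie on chromosome 19 at 41731623 to 41735456 and 41961520 to 41987725. DSG2 and DSC2 share chromosome 24, at 25602973 to 25653973 and 26027401 to 26065770. PKP2 is on chromosome 5 at 77001539 to 77081739, PKP3 on chromosome 29 at 50878615 to 50886978, PKP4 on chromosome 2 at 37644365 to 37902681 and DSP on chromosome 23 at 47824109 to 47868167. The counts cover whole genes, so no exon or isoform is set apart. In the RefSeq annotation, DSP, JUP, PKP2 and PKP4 overlap other small loci, and reads of either could not be separated where strand was not used.

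Total counts on genes ran from 44264579 to 54293790 on MEF and from 49660128 to 102347485 in feeder-free conditions, where line D was the largest library. Levels are given as TMM-normalised CPM, the share of a library's counts on a scale that sets all libraries equal, and are compared between libraries. They are not corrected for transcript length, so the gene with the highest CPM of a list, named below, took the most counts and need not have had the most transcripts. In this bulk RNA, more cells of a kind and more RNA per cell cannot be told apart.

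The keratins KRT8 and KRT18 were higher in feeder-free bESCs than on MEF in all 4 lines, by a wide margin in lines C and D and barely in line A. The log2 fold changes of the 6 desmosome genes tested lay between -0.28 (JUP) and 0.50 (PKP2). DSG2 and PKP2 were higher in 4 of 4 lines, with fitted changes under 1.5-fold, and DSP and PKP4 showed no common direction. Without the pairing of lines, 0 of the 9 members tested were called in either direction (edgeR quasi-likelihood test, Benjamini-Hochberg adjusted p under 0.05 and at least 1.5-fold), where 0.724% of all tested genes were called higher and 0.997% lower. Of the members, 2, KRT8 and KRT18, had an unadjusted p under 0.05, as did 3400 of all 15741 genes tested. The counts of such p given for the lists below have that same background. On condition alone DESeq2 called 1 member, KRT18, and limma-voom and the likelihood ratio test called 0. With line as a term in the fit (replicate block), 2 of 9, KRT8 and KRT18, were called higher and 0 lower, against 5.53% of all tested genes higher and 4.53% lower. PKP3 did not pass the filter on low counts. The median log2 fold change of the 9 was 0.39, beside 0.0059 for all 15741 genes tested.

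**Figure D1:**
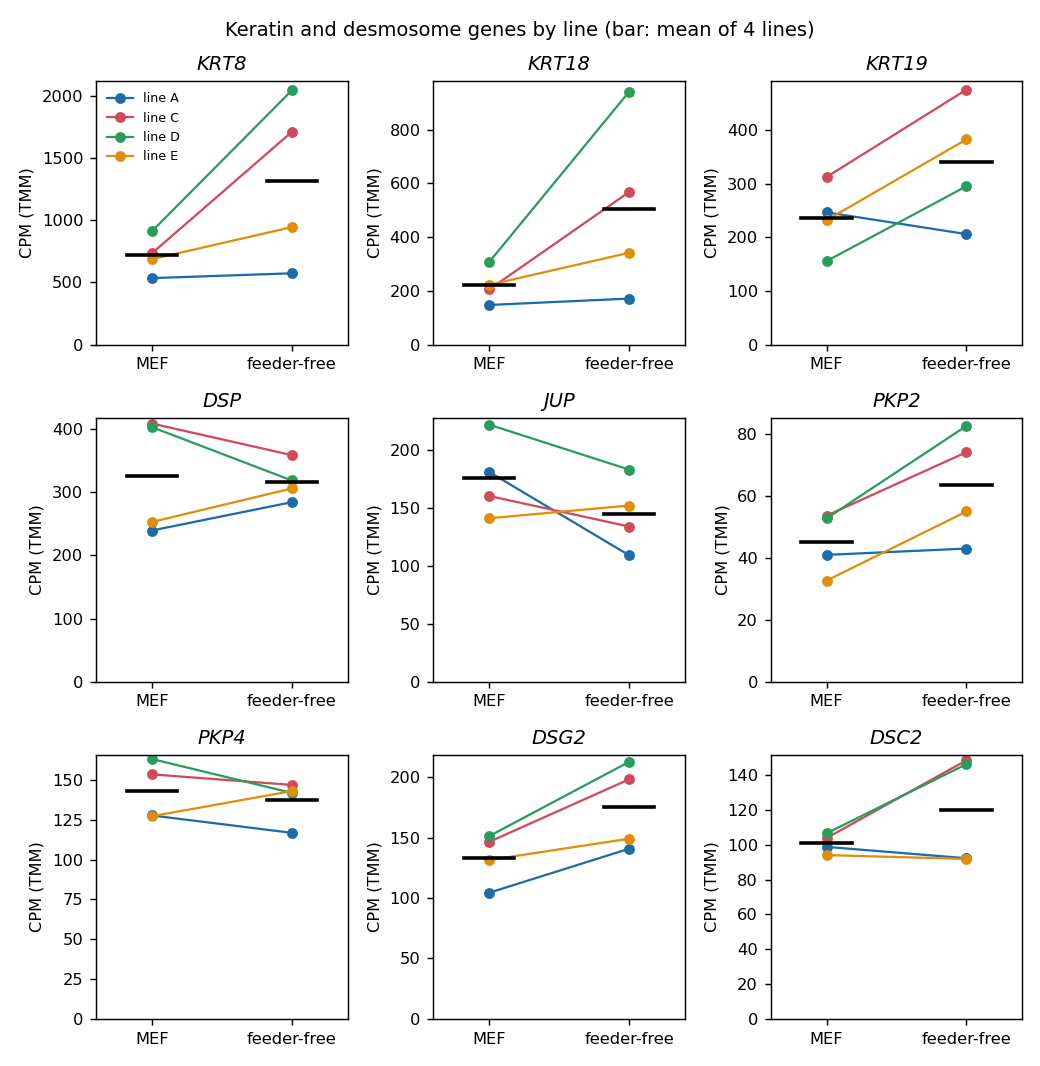
TMM-normalised CPM (vertical axis, separate scale per panel, from 0) of the 9 tested members on MEF and in feeder-free culture; each colour joins the 2 libraries of a line and black bars mark the mean of 4 lines. KRT8 and KRT18 slope up steeply in lines C and D and hardly in line A, while the lines of DSP and PKP4 slope both ways.

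KRT8, the type II partner in simple keratin filaments, was read at 534 CPM in line A, 734 in C, 911 in D and 686 in E on MEF. In feeder-free culture the same lines gave 573, 1709, 2043 and 944 CPM. Lines C, D and E in feeder-free culture stood above every MEF library and line A did not, so the conditions overlapped. The means were 716 ± 155 and 1317 ± 676 CPM (SD, n = 4 each), a log2 fold change of 0.88 (SE 0.36, edgeR adjusted p = 0.199). Within lines the fitted change was 0.74 (SE 0.18, edgeR adjusted p = 0.0253 with the replicate block).

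KRT18, a type I chain that polymerises with KRT8, had 148, 206, 308 and 223 CPM on MEF in lines A, C, D and E. The feeder-free libraries held 171, 568, 942 and 342 CPM. Line D was the highest and line A the lowest in both conditions, and the feeder-free value of line A fell within the MEF range. Means were 221 ± 66.1 and 506 ± 333 CPM (SD, n = 4 each), a log2 fold change of 1.20 (SE 0.45, edgeR adjusted p = 0.168). With the replicate block the change was 0.98 (SE 0.21, edgeR adjusted p = 0.0160), which is 1.97-fold.

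KRT19, the other simple type I keratin, had 247, 313, 156 and 232 CPM on MEF and 206, 476, 296 and 383 CPM in feeder-free culture for lines A, C, D and E. It was lower off feeders in line A and higher in the other 3 lines, and the conditions overlapped. Its means of 237 ± 64.4 and 340 ± 116 CPM (SD, n = 4 each) differed by 0.52 on the log2 scale (SE 0.28, edgeR adjusted p = 0.318), and by 0.50 with the replicate block (SE 0.18, edgeR adjusted p = 0.0788). Line D, which led for KRT8 and KRT18 on MEF, was the lowest of the MEF libraries for KRT19.

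The keratin calls within lines were lost without line C or line D, while the fitted changes stayed above 1.5-fold. Without line C, KRT8 had a log2 fold change of 0.59 (edgeR adjusted p = 0.120) and KRT18 of 0.83 (edgeR adjusted p = 0.0812) with the replicate block, and 0 members were called. Without line D, 0 were called as well, with 0.59 for KRT8 (edgeR adjusted p = 0.108) and 0.77 for KRT18 (edgeR adjusted p = 0.0588). Calls over all genes numbered 1063 without line C and 752 without line D, against 1584 with all 4 lines. Without line A, 4 members were called higher, KRT8, KRT18, KRT19 (log2 fold change 0.75, adjusted p = 0.00578) and PKP2 (0.62, adjusted p = 0.0173), and without line E, KRT8 and KRT18 were called. The log2 fold changes of KRT8 and KRT18 were positive in all 24 alternative fits. They ran from 0.59 to 1.13 for KRT8 and from 0.71 to 1.48 for KRT18. These fits reuse the same libraries, and the fit without a fold threshold repeats the main estimate, so the 24 are not separate support.

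**Figure D2:**
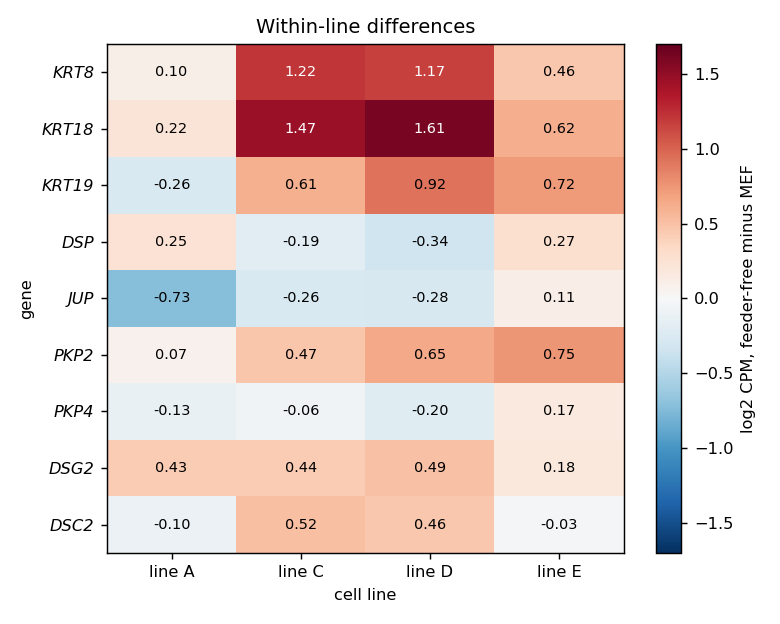
Log2 CPM in feeder-free culture minus log2 CPM on MEF (colour and printed value) for each of the 9 tested members (rows) in each line (columns). KRT18 reached 1.61 in line D and 1.47 in line C but 0.22 in line A, and JUP was lowest in line A, at -0.73.

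Read line by line, the summed CPM of the 3 keratins was 1.02-fold in line A, 2.20-fold in C, 2.39-fold in D and 1.46-fold in E (feeder-free over MEF). The summed CPM of the 7 desmosome genes was 0.992-fold, 1.03-fold, 0.988-fold and 1.15-fold in the same order. The keratin sum thus differed between lines, with A level and D the furthest from its MEF value, and the desmosome sum stayed within 1.15-fold of its MEF value in each. The 3 keratins made up 0.0874 to 0.139% of all counts on MEF and 0.0954 to 0.328% in feeder-free culture.

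Of the desmosomal cadherins, DSG2, the desmoglein of simple epithelia, had 104, 146, 151 and 131 CPM on MEF and 141, 198, 213 and 149 CPM in feeder-free culture in lines A, C, D and E. It was higher in 4 of 4 lines, by 0.18 to 0.49 on the log2 scale. The conditions overlapped, since lines A and E in feeder-free culture lay below line D on MEF. The means, 133 ± 21.1 and 175 ± 35.6 CPM (SD, n = 4 each), gave a log2 fold change of 0.39 (SE 0.18, edgeR adjusted p = 0.234). With the replicate block it was 0.39 (SE 0.10, edgeR adjusted p = 0.0347), past the p threshold and short of 1.5-fold, so DSG2 was not called.

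DSC2, the desmocollin that pairs with DSG2 across the cell gap, had a narrow MEF range of 94.1 to 107 CPM. In feeder-free culture it split into lines C and D, at 149 and 146 CPM, and lines A and E, at 92.3 and 91.8 CPM. The lines thus went different ways, with log2 differences of -0.10 in A, 0.52 in C, 0.46 in D and -0.03 in E. The fitted change was 0.25 (SE 0.18, edgeR adjusted p = 0.478) and 0.21 with the replicate block (SE 0.13, edgeR adjusted p = 0.305).

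In the plaque, JUP, the armadillo protein that desmosomes share with adherens junctions, had 181, 160, 222 and 141 CPM on MEF and 109, 134, 183 and 152 CPM in feeder-free culture in lines A, C, D and E. It was lower off feeders in 3 of 4 lines, most of all in line A, and higher in line E. The log2 fold change was -0.28 (SE 0.19, edgeR adjusted p = 0.436), and -0.29 with the replicate block (SE 0.14, edgeR adjusted p = 0.175). JUP had the lowest log2 fold change of the 9 members tested. That change was negative in all 24 alternatives, which reuse the same libraries, between -0.42 and -0.14.

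PKP2, a plakophilin that clusters the cadherins and recruits desmoplakin, had 41.0, 53.7, 52.8 and 32.7 CPM on MEF and 43.1, 74.2, 82.7 and 55.1 CPM in feeder-free culture in lines A, C, D and E. It was higher in 4 of 4 lines, though line A differed by only 0.07 on the log2 scale, and the conditions overlapped. The log2 fold change was 0.50 (SE 0.23, edgeR adjusted p = 0.248), and 0.48 with the replicate block (SE 0.13, edgeR adjusted p = 0.0363), again short of 1.5-fold. Without line A it passed both thresholds, as given above.

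PKP4, a relative of the plakophilins found at both desmosomes and adherens junctions, ran from 127 to 163 CPM on MEF and from 117 to 147 CPM in feeder-free culture. Its log2 differences within lines were -0.13 in A, -0.06 in C, -0.20 in D and 0.17 in E. The fitted value of -0.06 (SE 0.13, edgeR adjusted p = 0.846) changed sign in 2 of 24 alternatives, so no direction is given for PKP4.

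PKP3, the plakophilin with the broadest set of desmosomal partners, was at 0 counts in 7 libraries and at 2 counts in feeder-free line E. A floor of 3 counts corresponds to 0.0545 to 0.0720 CPM on MEF and 0.0293 to 0.0602 CPM in feeder-free culture, which limits counting error only. Between 69.8 and 75.3% of the counts from 1 to 20 in a library were even, so the 2 counts may be 1 read pair, and the floor may stand for fewer than 3 fragments. SIGIRR, the neighbouring gene on chromosome 29, was at 0 in all 8 libraries, while PTDSS2 on one side had 1793 to 5989 counts and B4GALNT4 on the other had 1715 to 5540. No fold was computed for PKP3, and a lack of transcript cannot be told apart here from reads lost in mapping or annotation.

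DSP, which links the plaque to keratin, had 239, 408, 403 and 253 CPM on MEF and 284, 358, 318 and 306 CPM in feeder-free culture in lines A, C, D and E. The lines with the low MEF values, A and E, were higher off feeders and the lines with the high ones, C and D, were lower. The SD over lines was 92.3 CPM on MEF and 31.3 CPM in feeder-free culture, around means of 326 and 317 CPM. The log2 fold change of -0.04 (SE 0.20, edgeR adjusted p = 0.938) changed sign in 8 of 24 alternatives.

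**Figure D3:**
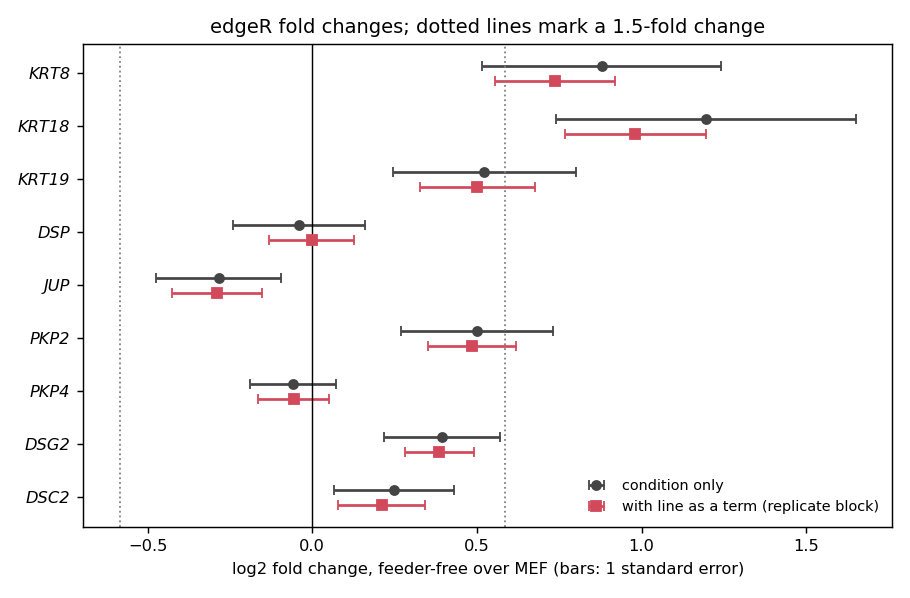
Log2 fold change, feeder-free over MEF, of each tested member in the edgeR fit on condition alone (circles) and with line as a term (squares); bars are 1 standard error and dotted lines mark 1.5-fold. The estimates were lower with line as a term for KRT18 (1.20 and 0.98) and KRT8 (0.88 and 0.74) and level for DSG2 (0.39 and 0.39), and the bars were shorter.

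Partners were then compared as ratios of counts within a library, which need no scaling between libraries. The ratio is not corrected for transcript length, so its change between conditions is read here and not its level. The 5 ratios were tested with two-sided exact permutation tests of 4 against 4 libraries, whose smallest possible p is 0.0286, with Benjamini-Hochberg adjustment over the 5. After adjustment, a single ratio at that p could not pass the threshold. The exact sign-flip permutation test within the 4 pairs cannot go below p = 0.125 and so could not reach the threshold.

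The log2 ratio of KRT8 to KRT18 was 1.86, 1.84, 1.57 and 1.62 on MEF and 1.74, 1.59, 1.12 and 1.46 in feeder-free culture in lines A, C, D and E. It was lower off feeders in 4 of 4 lines, by 0.24 on average, with lines A and C in feeder-free culture inside the MEF range (exact permutation p = 0.171, adjusted p = 0.321, n = 4 each). The log2 ratio of KRT19 to KRT18 spread from -0.98 to 0.74 on MEF and from -1.67 to 0.27 in feeder-free culture, a mean difference of -0.48 (exact permutation p = 0.486, adjusted p = 0.486). Line D held the lowest ratio of KRT19 to KRT18 in both conditions.

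The log2 ratio of PKP2 to PKP4 was -1.64, -1.52, -1.63 and -1.96 on MEF and -1.44, -0.98, -0.78 and -1.38 in feeder-free culture in lines A, C, D and E. It was higher in 4 of 4 lines, by 0.54 on average, and the conditions did not overlap (exact permutation p = 0.0286, the smallest possible, adjusted p = 0.143, n = 4 each). PKP4 was set against PKP2 after the values were seen, because PKP3 was at 0. The log2 ratio of DSG2 to DSC2 differed by 0.18 between conditions (exact permutation p = 0.2, adjusted p = 0.321), and that of DSP to JUP by 0.29 (exact permutation p = 0.257, adjusted p = 0.321). In line A the ratio of DSP to JUP went from 0.40 to 1.38 on the log2 scale, whereas the differences were 0.07 in line C, -0.06 in D and 0.17 in E.

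**Figure D4:**
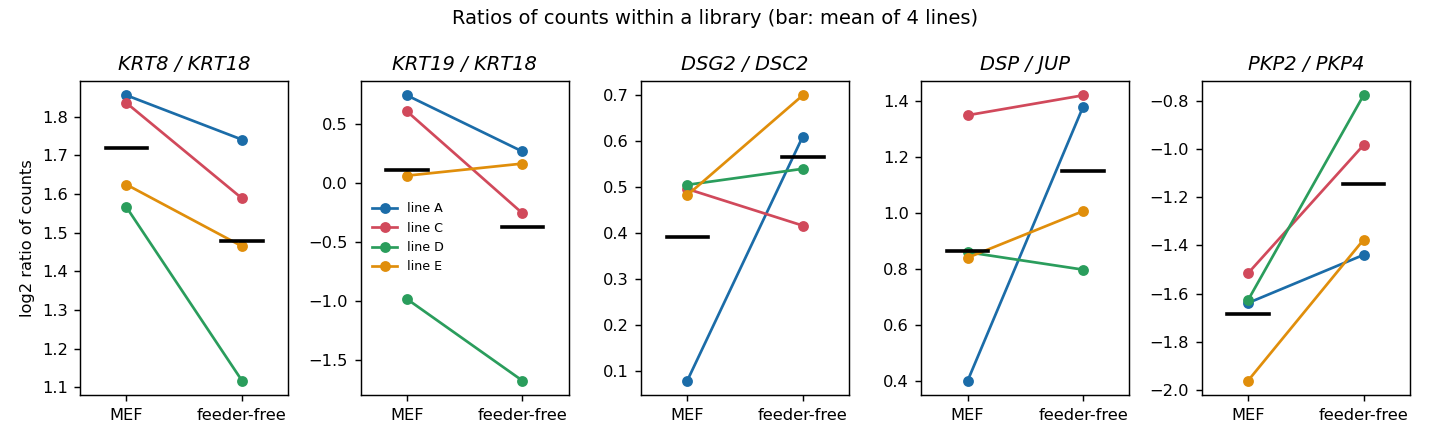
Log2 ratio of the counts of a pair of members within a library (vertical axis, separate scale per panel, not starting at 0) on MEF and in feeder-free culture; lines join the libraries of a bESC line and black bars are means of 4. The PKP2 to PKP4 ratio was above every MEF value in all 4 feeder-free libraries, and the KRT8 to KRT18 ratio sloped down in each line.

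The pattern of a member over the 8 libraries was compared with that of each tested gene by the root mean square difference of log2 CPM after removal of each gene's mean. For KRT18 the nearest genes included NUAK2 (0.16), a kinase, and MYH9 (0.17), a non-muscle myosin heavy chain, against a spread of 0.85 for KRT18 about its own mean. For KRT8 they were TUFT1 (0.15), PDLIM5 (0.16) and FILIP1 (0.17), against 0.66, and for KRT19 they were PYGM (0.20), SPSB4 (0.21) and HCRTR1 (0.23), against 0.48. For DSP they were TECPR1 (0.071), ZBTB40 (0.085) and PLCG1 (0.085), against 0.27. KRT8 and KRT18 differed from each other by 0.22 on this measure, the smallest value of either keratin with another member, and KRT18 differed from DSP by 0.79. DSP lay nearest to PKP4 among the members, at 0.16, and DSG2 nearest to DSC2, at 0.17.

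Among other simple keratins, 2 of 4 genes listed were tested, and both were called higher with the replicate block, none without it (both at an unadjusted p under 0.05, both called by DESeq2). KRT7, a type II keratin of ductal and placental epithelia, had 36.7, 19.0, 20.9 and 20.6 CPM on MEF and 40.9, 60.3, 59.6 and 113 CPM in feeder-free culture in lines A, C, D and E, and the conditions did not overlap. The share of all tested genes without overlap was not computed, so a lack of overlap, here and below, only describes the values. Its log2 fold change was 1.49 (SE 0.33, edgeR adjusted p = 0.0508), and 1.46 with the replicate block (SE 0.30, edgeR adjusted p = 0.0126), where it was not called without line C. KRT80 had a mean of 1.87 CPM on MEF and 7.64 CPM in feeder-free culture (log2 fold change 1.75 with the replicate block, SE 0.36, edgeR adjusted p = 0.0136), and it was not called without line D or line E. The median log2 fold change of the pair without the block was 1.76.

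Of 9 keratins of stratified epithelia, 2 were tested. KRT1, KRT4 and KRT5 were at 0 counts in all 8 libraries, and KRT10, a suprabasal keratin and one of the 2 tested, had means of 1.36 CPM in both conditions. KRT17, a keratin of basal and stressed epithelia, was higher in lines C, D and E and lower in line A, from 0.294 ± 0.0943 to 3.86 ± 3.53 CPM (SD, n = 4 each). It was called higher with the replicate block (log2 fold change 3.11, SE 0.78, edgeR adjusted p = 0.0263), but only 1 of the 4 fits that left out a line kept the call. KRT17 overlaps KRT42 in the annotation. The median log2 fold change of the 2 tested was 1.86.

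Other desmosome genes numbered 8, of which 4 were tested, with a median log2 fold change of 1.60. DSC1, a desmocollin of the upper epidermis, was the single gene of the list called without the block, at 0.145 ± 0.0375 CPM on MEF and 0.795 ± 0.309 CPM in feeder-free culture (SD, n = 4 each; log2 fold change 2.44, SE 0.46, edgeR adjusted p = 0.0402). When single libraries were left out on condition alone, it was called only without feeder-free line A. With the block, DSC1, DSC3 and PERP were called higher and 0 were lower. PERP, a tetraspan membrane protein of desmosomes, had 107, 73.8, 96.9 and 96.8 CPM on MEF and 131, 132, 207 and 154 CPM in feeder-free culture in lines A, C, D and E, without overlap. Its log2 fold change with the block was 0.72 (SE 0.14, edgeR adjusted p = 0.00921), and the call was lost without line C or line D, as was that of DSC1.

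DSC3, a desmocollin of basal epithelial layers, had 0.144, 0.436, 0.454 and 0 CPM on MEF and 1.00, 3.65, 13.4 and 0.269 CPM in feeder-free culture in lines A, C, D and E. It was higher in 4 of 4 lines, and line D stood far above the rest. The log2 fold change was 3.78 with the block (SE 0.48, edgeR adjusted p = 0.00187) and the call held without each line in turn, whereas without the block the adjusted p was 0.108. The MEF counts of DSC3 were 24 or fewer per library, so its fold is imprecise.

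Calls in the junctions around the desmosome are given beside those over all tested genes, 5.53% higher and 4.53% lower with the block. With so few genes tested, the counts are not read as a result about these junctions. Of the plakins, cytolinkers related to DSP, 5 of 6 were tested, 0 were called in either edgeR fit or by DESeq2, and 0 had an unadjusted p under 0.05. MACF1 had the highest CPM of them, at 144 and 137, and the median log2 fold change was 0.11. Of 7 hemidesmosome genes, 5 were tested and 0 called in either edgeR fit, 1 (CD151) having an unadjusted p under 0.05 and a call by DESeq2 with the block. The highest CPM of this list was that of ITGA6, at 214 and 237, with a median of 0.20. All 9 adherens junction genes were tested, with a median of 0.03. CTNNB1 (β-catenin), which had the highest mean CPM of the list over all 8 libraries, was at 889 ± 16.5 and 688 ± 54.8 CPM (SD, n = 4 each), without overlap, and had a log2 fold change of -0.37 with the block (SE 0.10, edgeR adjusted p = 0.0332), short of 1.5-fold.

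VCL (vinculin), an actin linker of cell-cell and cell-matrix junctions, was the adherens junction gene called with the block. It had 127, 279, 482 and 137 CPM on MEF and 318, 1233, 1716 and 602 CPM in feeder-free culture in lines A, C, D and E. It was higher in 4 of 4 lines, and line A was again the lowest and line D the highest in both conditions. The log2 fold change with the block was 1.86 (SE 0.15, edgeR adjusted p = 0.000276), and without it 1.92 (SE 0.58, edgeR adjusted p = 0.102).

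Of 11 other intermediate filament genes, 10 were tested, with a median log2 fold change of 0.24 and 0 calls without the block (3 at an unadjusted p under 0.05, 2 called by DESeq2). VIM (vimentin), the mesenchymal filament and the highest of them in CPM, had means of 756 and 826 CPM, with a log2 fold change of 0.13 (SE 0.26, edgeR adjusted p = 0.833). Its lines went different ways, with log2 differences of -0.98 in A, 0.28 in C, 1.02 in D and 0.11 in E. LMNA, a nuclear lamin, and DES (desmin) were called higher with the block, at 0.89 and 1.84 (edgeR adjusted p = 0.0465 and 0.0431), and each kept the call in 1 of the 4 fits without a line.

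Of 11 epithelial regulators, 7 were tested, with a median log2 fold change of 0.14. None was called without the block (2 at an unadjusted p under 0.05, 1 called by DESeq2). KLF5, a factor of epithelial and trophectoderm cells, had 3.65, 3.12, 6.44 and 1.86 CPM on MEF and 8.51, 12.7, 34.1 and 12.8 CPM in feeder-free culture in lines A, C, D and E, without overlap. Its log2 fold change was 2.18 without the block (SE 0.50, edgeR adjusted p = 0.0559) and 2.11 with it (SE 0.24, edgeR adjusted p = 0.00143), and the call held without each line in turn. ESRP1, an epithelial splicing regulator with the highest CPM of the list, had means of 44.4 and 54.3 CPM and was not called. ESRP2, the other gene at an unadjusted p under 0.05, went the other way from KLF5. It was lower in 4 of 4 lines without overlap, with means of 18.5 and 13.5 CPM. Its log2 fold change was -0.45 in both fits (edgeR adjusted p = 0.118, and 0.0644 with the block), and it was not called.

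Of 7 mesenchymal regulators, 6 were tested, with a median log2 fold change of -0.56. None was called without the block (3 at an unadjusted p under 0.05, 2 called by DESeq2). ZEB1, which represses epithelial genes, had 34.8, 27.0, 19.1 and 32.6 CPM on MEF and 15.0, 17.2, 13.8 and 10.3 CPM in feeder-free culture in lines A, C, D and E, without overlap. Its log2 fold change was -1.01 without the block (SE 0.22, edgeR adjusted p = 0.0511) and -0.995 with it (SE 0.20, edgeR adjusted p = 0.0110), where it was called lower. ZEB2 and PRRX1 were called lower too, at -0.68 and -4.15 with the block (edgeR adjusted p = 0.0197 and 0.00734). Whether reads of the mouse feeders remained in the MEF values of these regulators was not tested. The ZEB2 call was lost without line C, D or E, and PRRX1 had at most 2.62 CPM in any library. ZEB2 was lower in 4 of 4 lines here, whereas the paper lists it among genes upregulated in feeder-free culture at both oxygen levels. The source of this difference was not tested. SNAI2, another repressor of epithelial genes, went the other way at low levels, from 0.125 ± 0.0727 to 0.554 ± 0.205 CPM (SD, n = 4 each), higher in 4 of 4 lines without overlap. Its log2 fold change was 2.12 (SE 0.58, edgeR adjusted p = 0.0788) and 2.14 with the block (SE 0.65, edgeR adjusted p = 0.0518), and DESeq2 with the block called it higher.

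**Figure D5:**
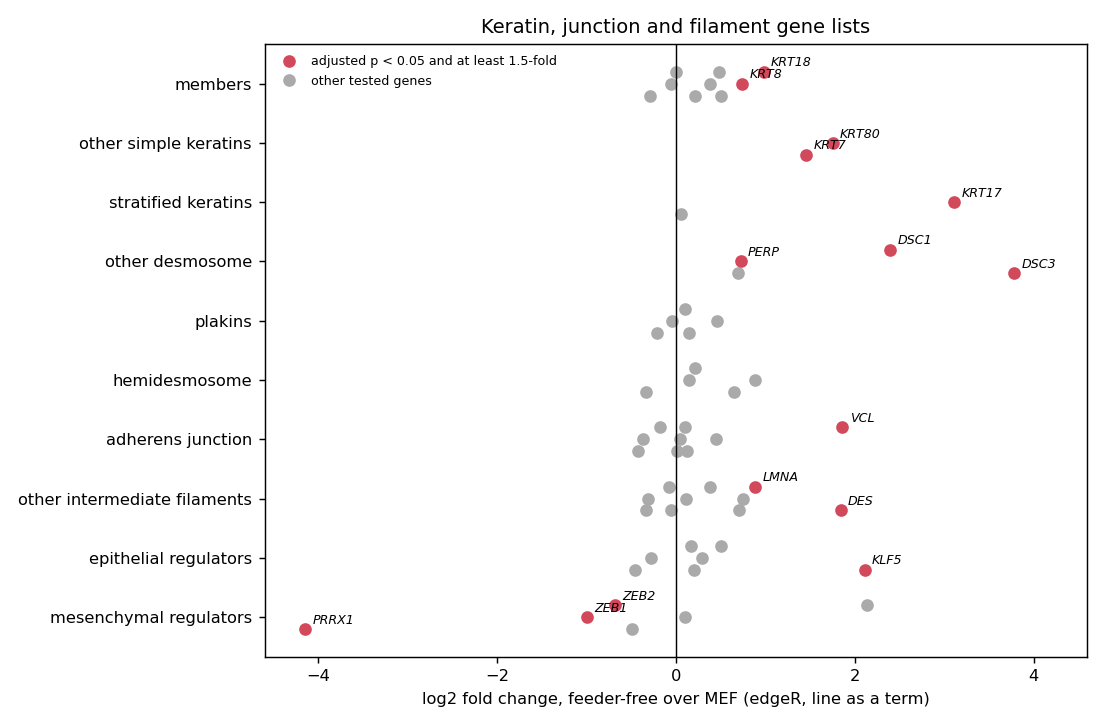
Log2 fold change, feeder-free over MEF, in the edgeR fit with line as a term for the tested genes of 10 lists (rows); red points passed an adjusted p of 0.05 and 1.5-fold, grey points did not, and the vertical offset within a row only separates points. KRT8, KRT18, KRT7 and KRT80 lay to the right of 0, and plakins and hemidesmosome genes held no red point.

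Markers of cell types were read beside these values. The 5 pluripotency markers summed to 3646 to 4196 CPM on MEF and 3229 to 3336 CPM in feeder-free culture, and 0 were called in either edgeR fit or by DESeq2, with 4 at an unadjusted p under 0.05 and all 5 lower. POU5F1 had their highest CPM, at 2048 and 1850. SALL4 was lower in 4 of 4 lines without overlap and passed the p threshold just short of 1.5-fold, at -0.58 in both fits (edgeR adjusted p = 0.0426, and 0.00616 with the block), and SOX2 passed it with the block at -0.35 (edgeR adjusted p = 0.0440). Of 8 trophoblast markers, CDX2 and PAG2 were at 0 in all 8 libraries and the list summed to 1.78 to 3.61 and 1.87 to 6.46 CPM. PTGS2 was called higher in both fits, at 0.278 and 1.51 CPM, and GATA2 lower with the block, at 1.12 and 0.421 CPM. GATA3, with the highest mean CPM of the list over all 8 libraries, had means of 0.774 and 1.43 CPM and was not called. The 8 endoderm markers summed to 5.23 to 14.6 and 4.31 to 7.18 CPM, with AFP at 0 in all libraries and 0 called in either edgeR fit (1 at an unadjusted p under 0.05, FOXA2, which had the highest CPM of the list at 7.38 and 3.87).

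The 10 fibroblast markers summed to 332 to 444 CPM on MEF and 162 to 1144 CPM in feeder-free culture. COL1A1 took most of these counts, with 292, 383, 366 and 370 CPM on MEF and 115, 597, 1034 and 283 CPM in feeder-free culture in lines A, C, D and E. Its order over the feeder-free lines was that of KRT8 and KRT18, with line A lowest and line D highest. COL3A1 and POSTN shared that order at lower CPM, and the other markers did not. LUM, DCN, PDGFRB and COL1A2 were highest in feeder-free line C. With the block, COL3A1 and POSTN were called higher and COL1A2 lower, and 0 were called without it (3 at an unadjusted p under 0.05, 3 called by DESeq2). The part of these markers in the keratin values was not tested. Nor was it tested whether reads of the mouse feeders remained in their MEF values.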

How the data were processed

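RNA sequencing of 4 bESC lines in 2 culture conditions was analysed. The files hold raw counts per gene in 8 libraries as deposited. Before that the authors trimmed reads with Trimmomatic, aligned them to ARS-UCD2.0 with STAR, filtered optical duplicates (Picard) and alignments of MAPQ below 30 (samtools), and counted with featureCounts (Subread 1.6.2 in the submitters' processing notes). The strand setting, and whether reads or pairs were counted, are not given in the sources used here. A mapping quality filter discards reads shared with near-identical copies, which KRT8 and KRT18 are known to have, so their levels are less certain. The methods also subtract from the MEF counts what a sample of MEF alone aligned to the bovine genome, and that sample was not analysed here. RNA isolation is given as RNeasy in the methods and as Trizol in the sample records.

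Of 32640 rows, 3 genes without values (NEB, SYNE1 and DST) and 3 rows naming no gene, with at most 0.0229% of counts, were left out. Coordinates came from RefSeq, where 30268 symbols matched. Libraries of a condition differed beyond sampling noise (smallest chi-square per degree of freedom 34.3 over 12 pairs). The main test was edgeR 4.0.16 (R 4.3.3) by quasi-likelihood, with filterByExpr and TMM, for condition only, Benjamini-Hochberg adjusted across 15741 genes, at adjusted p 0.05 and 1.5-fold. It called 271 genes, of which 269 were among the 1584 called with line as a term. Line letters pair the libraries, each line having been grown both ways: deviations from the condition mean correlated over genes at 0.427 to 0.664 within a line and at -0.525 to 0.250 between lines. Taking away the condition mean pushes the values between lines down when those within a line are positive, so part of this contrast is built in. Log2 CPM used a prior count of 2 and count ratios a prior count of 0.5, with exact permutation tests in scipy 1.17.1.

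On simulated counts with line effects, 195 genes changed 2-fold were among 15325 tested. They were recovered at 0% without the line term and at 67.7% with it, where 11.4% of calls were false. Without the line term 0 genes were called on those counts and 271 in the data, so the counts did not match the data in this respect. The share of changed genes that either fit recovers in the data was not tested. The members, lists and tests were chosen with earlier results of these data known. Named genes were all members, each list gene called in either fit, the gene of each list with the highest mean CPM, and the 3 genes nearest to KRT8, KRT18, KRT19 and DSP, of which 1 is not reported here. Other genes named (CD151, SNAI2, ESRP2, SALL4, SOX2, KRT10, the neighbours of PKP3 and list genes at 0) were chosen after their values were seen. Alternatives were RLE, no scaling, other filters, a likelihood ratio test, DESeq2 1.42.0, limma 3.58.1 (voom), no fold threshold, thinning of feeder-free line D, the replicate block, and leaving out libraries or lines. The number of value columns left unused was 0.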

Additional observations from a re-analysis of the deposited data

Results flagged for a closer look

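In 2 of the 28 groups of 4 libraries examined (9 members and 5 ratios in each condition), 1 library stood apart from the other 3 by Dixon's test, where chance gives about 1.4. PKP4 was at 6.87 log2 CPM in feeder-free line A, against 7.15 to 7.20 in the other feeder-free lines. The log2 ratio of DSG2 to DSC2 was 0.080 in line A on MEF, against 0.48 to 0.50 in the other MEF lines.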

How the results depend on the processing

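The count of members called higher was 0 on condition alone and stayed 0 with RLE, without scaling, with either other filter, the likelihood ratio test, limma-voom, no fold threshold and the thinned library. It was 1 with DESeq2 (KRT18, adjusted p = 0.0377) and 2 with the replicate block, alone, with RLE or with DESeq2. Over the leave-one-out fits it ranged from 0 to 4, with 4 reached in the replicate block without line A. The count called lower was 0 in each. The log2 fold change of DSP turned positive with limma-voom (0.0027) and with the replicate block under RLE (0.0096) or DESeq2 (0.0096), and ranged from -0.17 to 0.11 when libraries or lines were left out, where that of PKP4 ranged from -0.12 to 0.010. Of 216 member values under alternatives, 193 kept direction and call, 13 gained a call and 10 changed sign, and the cause was not tested. None could lose a call, since the main fit called 0 members. The 5 ratios kept their direction and stayed short of the threshold, with the sign-flip test over pairs as with the others. The sign-flip test, and the exact test with a library left out, could not reach the threshold with so few libraries. Their missing calls are therefore no check on the ratios.

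Pathway list genes called numbered 1 on condition alone, 0 without a filter and with limma-voom, 3 with at least 10 counts in every library, 12 with the likelihood ratio test, 12 with DESeq2, 13 with the replicate block, 14 with it and RLE, 16 with it and DESeq2, and 0 to 17 in the leave-one-out fits. These were added after the data were seen. Over all genes the calls were 271, 174 without scaling, 170 without a filter, 411 with the 10-count filter, 840 with the likelihood ratio test, 1212 with DESeq2, 1584 with the replicate block, and 0 to 492 with 1 library left out. The planned ratio of PKP2 to PKP3 was not run, since PKP3 was at 0 in 7 libraries. Only 4 lines set the spread, and genes with few counts on MEF, such as DSC1 and DSC3, have imprecise folds.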
